A study of Mus musculus with 7 samples.

Results

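The aminoacyl-tRNA synthetase genes were examined in single mouse morulae. The set comprised 35 of the 26586 gene symbols in the count table, chosen by name: 19 enzymes that act in the cytosol, 15 that act in mitochondria, and Lars2, the mitochondrial leucyl enzyme, which was kept apart because its reads may not come from its messenger RNA. All 35 were found in the table under the symbols used here. The samples were 7 untreated embryos, numbered as replicates 1 to 7. They were morulae of C57BL/6 background, flushed on day 3 of pregnancy (d.p.c.) from L13a(+/-) mothers, and the labels call the mating an L13a-/+ cross without describing the allele or the father. L13a is Rpl13a, a protein of the large ribosomal subunit. The labels give no genotype, sex, litter or batch for any embryo and no wild-type cross, so the embryos form 1 group and no embryo was put in a class by a measured value. Nothing in the labels says that the embryos came from separate litters, so each p-value measures no more than how these 7 samples vary, and part of that may be technical.

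Aminoacyl-tRNA synthetases join each amino acid to its tRNA and so set the genetic code at the point of translation. Cells keep a cytosolic and a mitochondrial set, nearly all encoded by separate nuclear genes, although Gars and Kars each supply both compartments. In the cytosol several of the enzymes are held in a multisynthetase complex by the scaffold proteins Aimp1, Aimp2 and Eef1e1. Many of the cytosolic genes are known targets of Atf4, the transcription factor of the amino acid response, which binds elements with the core TGATGNAA.

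The promoters were searched for that core because it is the best known shared control element of the cytosolic genes. Of the 35 genes, 26 had a RefSeq promoter (GRCm38.p6, 250 bases before to 50 after the gene start), 12 cytosolic, 13 mitochondrial and Lars2. Cars, Hars, Hars2, Lars, Nars, Pars2, Rars, Vars and Wars had no entry. On either strand (TGATGNAA or TTNCATCA), the core was present in 5 of the 12 cytosolic promoters, those of Aars, Gars, Iars, Tars and Yars, and in 0 of the 13 mitochondrial ones. Of all 32851 promoters in the table, 3.97% held it, and 4.51% of 27025 genes had it in a promoter. In Iars and Yars it overlapped or followed the RefSeq start, and Aars had a match there and another upstream. It lay only upstream in Gars, at chr6:55037911-55038000 on the plus strand, and in Tars, at chr15:11399659-11399733 on the minus strand. These 2 windows are shown 5′ to 3′ along the gene, with the matching bases in capitals. Such a match is a description of the letters and not of a bound site.
Gars: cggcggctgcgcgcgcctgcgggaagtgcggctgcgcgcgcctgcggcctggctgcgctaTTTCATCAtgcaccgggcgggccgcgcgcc
Tars: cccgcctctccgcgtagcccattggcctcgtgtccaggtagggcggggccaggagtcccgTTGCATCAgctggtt

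The libraries differed greatly in depth and content. Total counts ran from 139619 in replicate 6 to 33123742 in replicate 4, and between 1749 and 12064 genes had a count. A count of 0 allows up to 3 reads, which is 0.0906 CPM (a gene's count scaled to a common library total) in replicate 4, 0.182 in replicate 2, 0.175 in replicate 7, 1.09 in replicate 5, 2.62 in replicate 1, 4.13 in replicate 3 and 21.5 in replicate 6. These limits, and the 95% intervals given for levels and shares, cover counting error only, since amplified copies could not be told from separate molecules. Of 10 markers of the morula and blastocyst, 10 were counted in replicate 4, 6 in replicate 2, 3 in replicate 7, 2 in replicate 3, 1 in replicate 5 and 0 in replicates 1 and 6, with Nanog and Cdx2 counted in replicate 4 only. Pou5f1, a defining gene of the embryo's own cells, was counted in replicates 2, 4 and 7. Between 5 and 10 of 10 oocyte markers were counted in each embryo, and their summed level was lowest in replicate 5 (690 CPM) and highest in replicate 7 (17481 CPM). In replicate 4, however, Dppa3 alone made up 4059 of the 4072 CPM, and the next oocyte marker, Gdf9, had 6.19 CPM. In replicate 5 the highest oocyte marker was Omt2b, with 577 CPM. Markers of oviduct and uterine epithelium summed to 1154, 1764, 0, 49.9, 1.81, 4340 and 353 CPM and stroma markers to 44.6, 114, 0, 0, 0, 4348 and 6.66 CPM in replicates 1 to 7, while all 5 cumulus and granulosa markers had no count in any embryo. Of 6 blood and immune markers, at most 2 were counted in an embryo, and their summed level was at most 444 CPM, in replicate 6. In whole embryos, fewer cells of a type and less RNA per cell cannot be told apart.

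The complete set of synthetase transcripts was seen in 1 embryo. All 19 cytosolic and all 15 mitochondrial genes were counted in replicate 4. The other embryos had 4, 16, 5, 9, 1 and 11 cytosolic genes (replicates 1, 2, 3, 5, 6 and 7) and 5, 7, 1, 4, 0 and 4 mitochondrial genes. Of the 34 genes other than Lars2, 26.5, 67.6, 17.6, 100, 38.2, 2.94 and 44.1% were counted in replicates 1 to 7, beside 41.7, 72.1, 29.0, 84.0, 27.7, 14.8 and 69.5% of the 11810 genes whose mean CPM was at least 1. Replicates 4 and 5 thus held a larger share of these genes than of all genes tested, and the other 5 embryos a smaller one. All 1749 genes counted in replicate 6 passed the mean CPM filter, since 1 read there is 7.16 CPM, against 9921 of 12064 in replicate 4. The filter thus raised the share of all genes tested in shallow libraries, so part of the smaller shares there was set in advance. With every library thinned to 139619 counts, 3, 14, 5, 19, 8, 1 and 10 cytosolic and 5, 5, 1, 13, 3, 0 and 3 mitochondrial genes kept a count. The order of the embryos was thus nearly that of the full libraries. Of all symbols, 3914, 6889, 2824, 8570, 2347, 1749 and 6623 kept a count in replicates 1 to 7. Replicates 4, 2 and 7 were thus the highest for all symbols as well as for the cytosolic genes. No gene of the 34 was counted in all 7 embryos, as were 3.69% of the genes tested.

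**Figure D1:**
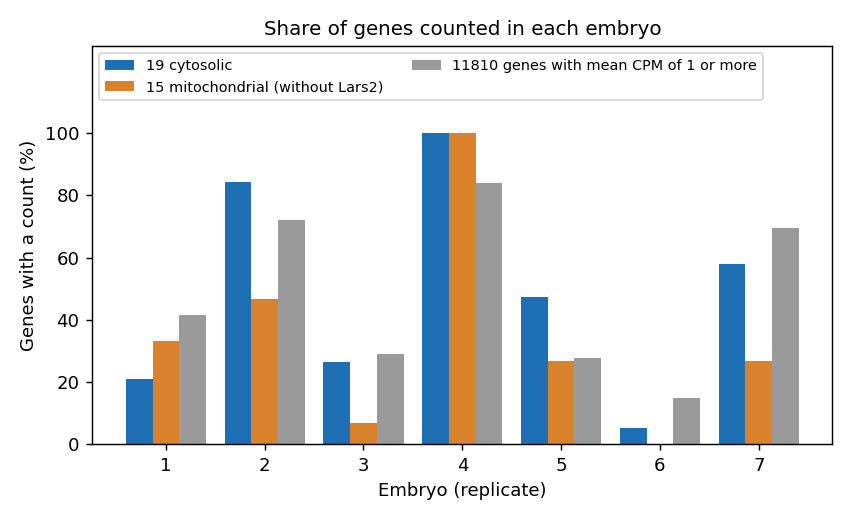
Bars give the percentage of genes with a count (vertical axis) in each embryo (horizontal axis) for the 19 cytosolic genes, the 15 mitochondrial genes without Lars2, and the 11810 genes whose mean CPM was at least 1. Replicate 4 reached 100% in both synthetase groups, against 84.0% of all genes tested.

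The summed level of the cytosolic genes was highest in replicate 4. They took 0.284% of the counts of replicate 4 (exact Clopper-Pearson 95% limits 0.283 and 0.286) and 0.132% in replicate 5 (limits 0.128 and 0.136). In replicates 2, 3 and 7 the share was 0.109, 0.0952 and 0.0928%. It was 0.0335% in replicate 1 (limits 0.0302 and 0.0370) and 0.00788% in replicate 6 (limits 0.00393 and 0.0141). Replicate 4 was thus 36.1-fold above replicate 6, where the whole group rested on 11 reads of Iars. The mitochondrial genes took 0.0539% of the counts in replicate 1 (limits 0.0497 and 0.0583), 0.0486% in replicate 2 and 0.0534% in replicate 4 (limits 0.0526 and 0.0542). The share was 0.000413, 0.0203, 0 and 0.0308% in replicates 3, 5, 6 and 7. Replicates 1, 2 and 4 were close to each other in that group, whereas replicate 3 had 3 reads and replicate 6 had 0, which allows up to 21.5 CPM. Scaled by exon length, summed cytosolic levels exceeded summed mitochondrial levels 2.64-fold in replicate 2, 5.47-fold in replicate 4, 6.54-fold in replicate 5 and 3.45-fold in replicate 7, and were lower in replicate 1, with a ratio of 0.467. Replicates 3 and 6 had too few mitochondrial reads for a ratio.

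**Figure D2:**
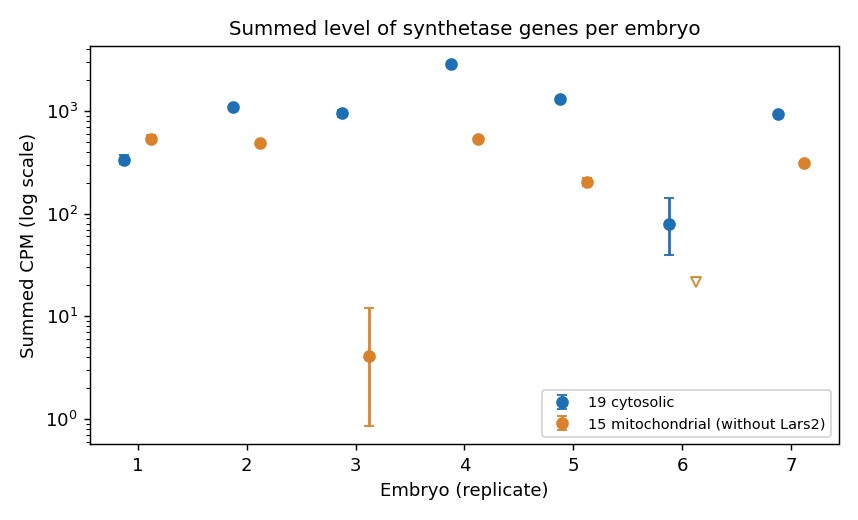
Summed CPM (log axis) of the 19 cytosolic and the 15 mitochondrial genes in each embryo, with 95% Clopper-Pearson intervals; the open triangle stands at 3 counts where no read was counted. Cytosolic levels lay above mitochondrial ones in every embryo but replicate 1.

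Cytosolic genes detected in most embryos included Aars, Iars, Farsb, Gars and Qars. Aars, the alanyl enzyme, had the highest median, 102 CPM, with 192, 76.7, 102, 136, 332, 0 and 35.7 CPM in replicates 1 to 7. It was the most evenly detected of the cytosolic genes, missing only from replicate 6, where up to 21.5 CPM could go unseen. Its exons (GENCODE M21, GRCm38, chromosome 8, 111033144 to 111057664, plus strand) overlap those of Exosc6 on the same strand, which had counts in replicates 2 and 4 only. Gars, the glycyl enzyme of cytosol and mitochondria, stood at 0, 95.5, 45.5, 199, 72.0, 0 and 98.2 CPM. Qars, the glutaminyl enzyme, had 0, 183, 42.7, 197, 232, 0 and 48.2 CPM. Both had no count in replicates 1 and 6 and were present in the other 5 embryos, highest in replicate 4 for Gars and in replicate 5 for Qars.

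Iars, Rars and Farsb each had a high level in a different embryo. Iars, the isoleucyl enzyme (chromosome 13, 49682100 to 49734267), had 123, 165, 0, 90.5, 0, 78.8 and 501 CPM, highest in replicate 7 (95% Poisson interval 491 to 512). Rars, the arginyl enzyme (chromosome 11, 35808381 to 35834506), had 0, 188, 4.13, 203, 552, 0 and 3.56 CPM, highest in replicate 5 (525 to 580). Farsb, a subunit of the phenylalanyl enzyme (chromosome 1, 78417975 to 78488897), had 18.4, 110, 758, 168, 0, 0 and 57.3 CPM, highest in replicate 3 (696 to 824). These 3 maxima fell in 3 different embryos, and none of them was replicate 4.

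As a result, 1 gene supplied much of the cytosolic total in most embryos. Aars supplied 57.4% of it in replicate 1 (limits 52.3 and 62.4) and Farsb 79.6% in replicate 3 (limits 76.4 and 82.5). Rars supplied 41.8% in replicate 5 (limits 40.2 and 43.4) and Iars 54.0% in replicate 7 (limits 53.2 and 54.8). In replicate 2 the leading gene was Rars, with 17.2%. In replicate 4 it was Nars, the asparaginyl enzyme, with only 10.1%. Levels in replicate 4 were the most even, from 24.6 CPM for Cars to 286 CPM for Nars, and from 3.74 to 70.4 CPM per kilobase of exon.

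The subunits of the cytosolic phenylalanyl enzyme were counted unequally. The active enzyme holds the products of Farsa and Farsb together in equal numbers. Farsa had 0, 1464, 0, 5280, 9, 0 and 427 reads and Farsb 21, 1811, 550, 5569, 0, 0 and 981 reads in replicates 1 to 7. Farsb made up 55.3% of the reads of both in replicate 2 (limits 53.6 and 57.0), 51.3% in replicate 4 (limits 50.4 and 52.3) and 69.7% in replicate 7 (limits 67.2 and 72.1). In replicate 3 all 550 reads were Farsb (lower limit 99.3%), while in replicate 5 the 9 reads were all Farsa. Read numbers were thus similar in replicates 2 and 4 and unequal in replicates 3 and 7. Per kilobase of exon, however, Farsb stood above Farsa in replicates 2 and 4 as well, at 42.0 against 19.6 CPM in the former and 64.2 against 35.1 CPM in the latter, since the merged exons of Farsa are the longer (4538 against 2620 bases).

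A further block of cytosolic genes was nearly confined to replicates 2 and 4. Lars, the leucyl enzyme, stood at 51.2 CPM and Yars, the tyrosyl enzyme, at 115 CPM in replicate 4, with no count in the other 6 embryos. Of 4 genes counted in replicates 2 and 4 only, Mars, the methionyl enzyme, went from 7.96 CPM in the former to 241 in the latter, and Vars, the valyl enzyme, from 16.8 to 206. The same pair of values was 0.912 and 137 CPM for Tars, the threonyl enzyme, and 41.1 and 71.2 CPM for Hars, the histidyl enzyme. In replicate 7, whose total of 17122136 counts was above that of replicate 2, all 6 of these genes were at 0, which allows each up to 0.175 CPM. Cars, the cysteinyl enzyme, was low throughout, with 9.48, 24.6 and 3.97 CPM in replicates 2, 4 and 7 and 0 elsewhere. Dars, Kars, Nars, Sars, Wars and Farsa were counted in 3 or 4 embryos each, always including replicate 4, where they had from 102 to 286 CPM. In all, 14 of the 19 cytosolic genes had their highest CPM in replicate 4, beside 29.6% of all genes tested.

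**Figure D3:**
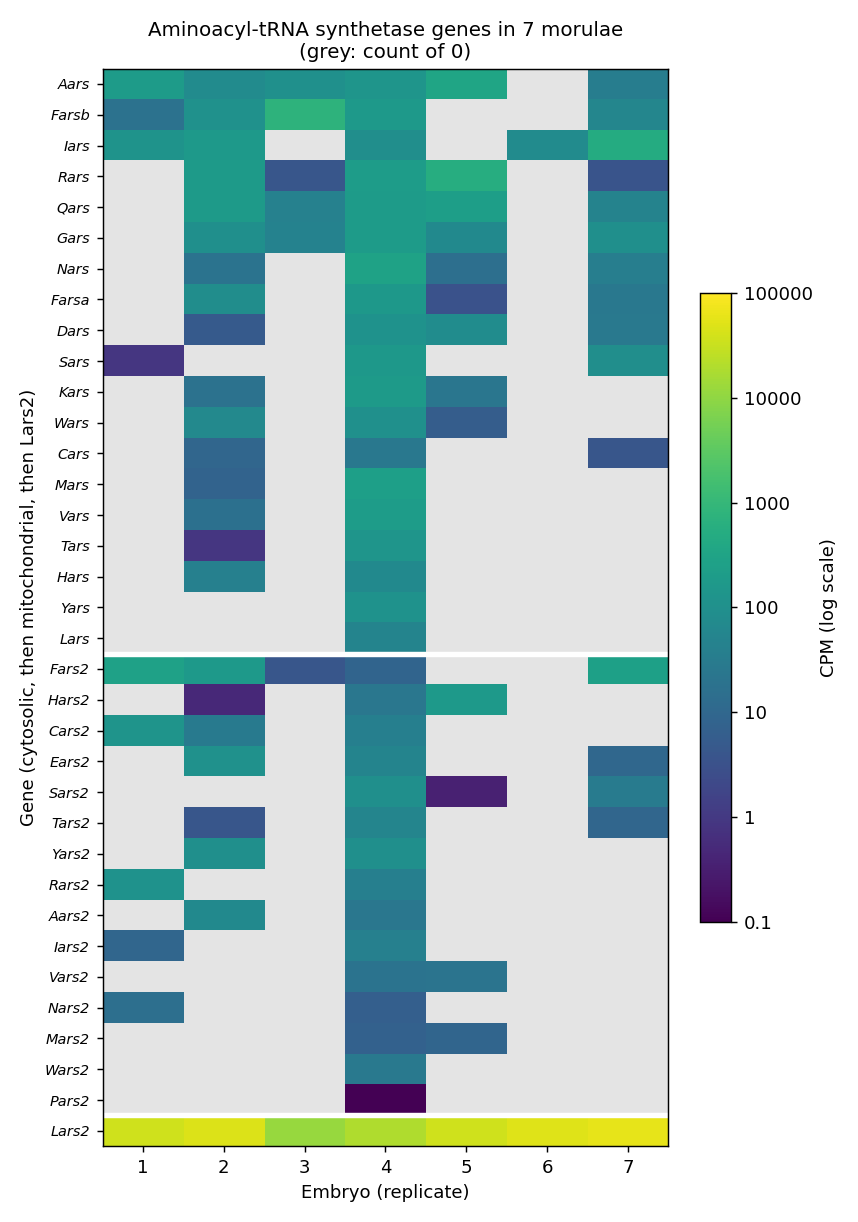
Each row is a gene and each column an embryo; colour gives CPM on a log scale, and grey marks a count of 0. Replicate 4 is filled throughout, replicate 6 has only Iars and Lars2, and Lars2 is in the top colour range in all 7 embryos.

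Genes of the multisynthetase complex were detected in the same embryos as the other cytosolic genes, replicate 6 apart. Of the 7 listed genes whose products sit in the complex (Dars, Iars, Kars, Lars, Mars, Qars and Rars), 1, 6, 2, 7, 4, 1 and 4 were counted in replicates 1 to 7, and of the 12 other cytosolic genes 3, 10, 3, 12, 5, 0 and 7. The difference between these groups was not tested. Among the scaffold and bifunctional genes, Aimp2 had 0, 58.2, 103, 230, 49.6, 0 and 84.9 CPM and Eprs, which joins glutamyl and prolyl enzymes in 1 chain, 0, 86.7, 4.13, 206, 210, 50.1 and 8.35 CPM. Aimp1, the scaffold that also binds tRNA, was counted in replicate 4 alone, at 71.5 CPM. Eef1e1 was highest in replicate 5, with 434 CPM. Replicate 5 thus held Rars, Qars, Eprs and Eef1e1 at or above their level in replicate 4 while lacking reads of Iars, Lars and Mars, for which 3 reads would be 1.09 CPM.

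Mitochondrial genes were sparser, and Fars2 led them. Fars2, the mitochondrial phenylalanyl enzyme (chromosome 13, 36117412 to 36726280, plus strand), had 274, 173, 4.13, 8.76, 0, 0 and 257 CPM in replicates 1 to 7. It supplied 50.8% of the mitochondrial total in replicate 1 (limits 46.8 and 54.8), 35.7% in replicate 2 (limits 34.6 and 36.7) and 83.2% in replicate 7 (limits 82.2 and 84.2). In replicate 4, where all other members of the group were counted, it was low. Oviduct and uterine epithelium markers also summed to 353 CPM or more in replicates 1, 2 and 7, but to 4340 CPM in replicate 6, where Fars2 had no read, and 9 or 10 of the 10 oocyte markers were counted in replicates 1, 2 and 7. Oocyte markers summed to 9081, 10637 and 17481 CPM in those 3 embryos. They also summed to 11365 CPM in replicate 3, where 7 of them were counted and Fars2 had only 3 reads. The part of either marker group in the level of Fars2 was not tested. Its exons overlap those of Lyrm4 and Nrn1 on the opposite strand; Nrn1 had no count and Lyrm4 had 4, 0, 2, 1373, 0, 31 and 2951 reads, none of them in replicate 2, where Fars2 had 2853.

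Other mitochondrial genes appeared in replicate 4 and in few further embryos. In replicate 2, Ears2, the glutamyl enzyme, had 111 CPM, Yars2, the tyrosyl enzyme, 98.8 CPM and Aars2, the alanyl enzyme, 68.6 CPM, each above its level in replicate 4 (51.1, 95.6 and 23.9 CPM). In replicate 1, Cars2, the cysteinyl enzyme, reached 124 CPM and Rars2, the arginyl enzyme, 115 CPM, against 38.7 and 39.0 CPM in replicate 4. Aars2, Yars2 and Rars2 had no count in any other embryo, and the remaining reads of Cars2 were in replicate 2 (30.1 CPM). In replicate 5, Hars2, the histidyl enzyme, reached 174 CPM against 24.5 CPM in replicate 4, and made up 85.4% of the mitochondrial total (limits 82.2 and 88.2). Fars2 apart, replicates 1, 2 and 5 thus each held a different small set of abundant mitochondrial transcripts.

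The remaining mitochondrial genes were low or rare. Iars2 and Nars2 were counted in replicates 1 (9.62 and 15.7 CPM) and 4 (41.3 and 6.40 CPM) only. Mars2 and Vars2 were counted in replicates 4 (7.25 and 19.7 CPM) and 5 (9.04 and 20.3 CPM) only. Wars2, the tryptophanyl enzyme, was counted in replicate 4 alone, with 26.9 CPM, and so was Pars2, the prolyl enzyme, with 3 reads (0.0906 CPM), the lowest level of all 35 genes. Sars2 and Tars2 were highest in replicate 4, with 96.3 and 54.3 CPM. In all, 5 of the 15 mitochondrial genes had their highest CPM in replicate 4, 4 in replicate 1, 3 in replicate 2 and 3 in replicate 5.

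Cytosolic and mitochondrial enzymes for the same amino acid were compared per kilobase of exon in 14 pairs, with Farsa and Farsb each paired with Fars2. In replicate 4 the cytosolic gene was the higher in 12 pairs and the mitochondrial gene in 2, those of cysteine and tyrosine. In replicates 2, 5 and 7 the cytosolic gene was higher in 8, 5 and 6 pairs and the mitochondrial gene in 5, 3 and 3. In replicate 1 the mitochondrial gene was higher in 5 pairs and the cytosolic in 2. Pairs with 3 reads or fewer of both genes were left out of these counts. For phenylalanine, Fars2 stood at 47.6, 30.2 and 44.7 CPM per kilobase in replicates 1, 2 and 7, and at 1.52 in replicate 4, where Farsa and Farsb had 35.1 and 64.2. For histidine, Hars had 29.1 and 16.8 CPM per kilobase in replicates 4 and 2, whereas Hars2 had 40.6 in replicate 5, where Hars had no read; exons of these neighbouring genes overlap on opposite strands. For isoleucine, Iars was higher in all 5 embryos with enough reads.

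Spread between embryos was large for every gene of the set but Lars2 and the barely counted Pars2. Over the 7 embryos the SD of log2 CPM had a median of 4.23 for the 19 cytosolic genes and 3.86 for the 14 mitochondrial genes that passed the filter on low values (Pars2 did not), beside 3.63 for all 11810 genes tested. The widest were Rars (3.58 ± 4.86 log2 CPM, SD, n = 7) and Iars (4.57 ± 4.65) among cytosolic genes and Fars2 (3.60 ± 4.55) and Yars2 (0.52 ± 4.42) among mitochondrial ones. The narrowest were Lars (-0.89 ± 3.10) and Cars (0.36 ± 3.15), and Wars2 (-1.03 ± 2.75) and Mars2 (-0.50 ± 2.67), each with a count of 0 in 4 to 6 of the 7 embryos. The SDs of Lars and Wars2 rest on replicate 4 alone, since the other 6 embryos had no count. In the edgeR test of whether a gene's dispersion exceeded that of genes of like abundance, 0 of the 34 tested members, Lars2 included, passed (adjusted p of 0.869 or more), and 0% of all 11810 genes did. At an unadjusted p under 0.05 there were 0 members and 67 genes (0.567%). In limma's test on the authors' normalized values 0 genes passed. DESeq2 gave only a flag of dispersion outliers, not a test at an adjusted p, and it marked 0 genes. The common dispersion was 9.03, and a count of 0 at this spread does not show that the genes were equally variable.

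**Figure D4:**
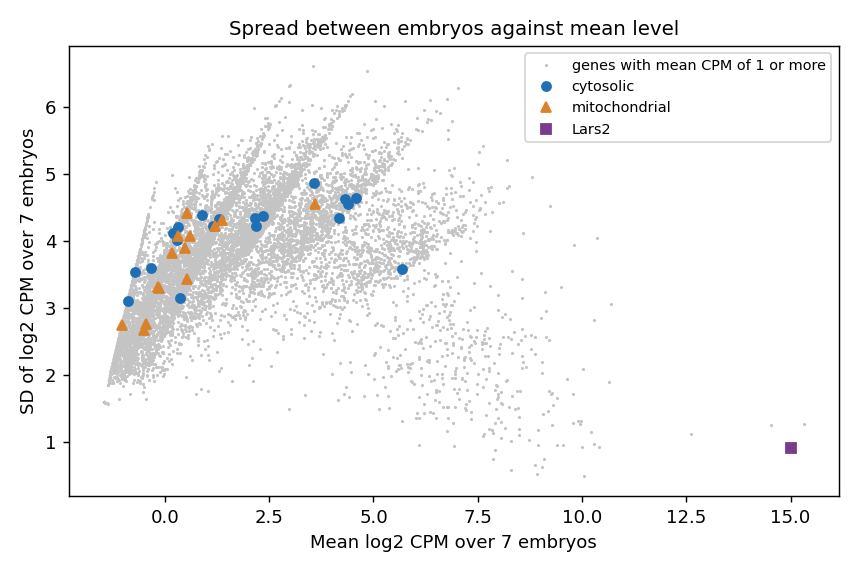
Each grey point is a gene tested, placed by the mean (horizontal) and SD (vertical) of its log2 CPM over 7 embryos; circles are cytosolic genes, triangles mitochondrial genes and the square Lars2. The synthetase genes lie within the cloud of genes of like mean, and Lars2 lies at the far right with an SD of 0.90.

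Levels of the synthetase genes were also set against Rpl13a, the gene that names the cross. Rpl13a stood at 86.5, 119, 5.51, 530, 3.26, 7.16 and 23.5 CPM in replicates 1 to 7. In replicates 3, 5 and 6 these values rested on 4, 9 and 1 reads, so the low end of the covariate is poorly measured. In edgeR's quasi-likelihood test of the slope on log2 CPM of Rpl13a, 0 of 34 members passed (adjusted p of 0.113 or more), as did 0% of 11809 genes, and 30 of the 34 slopes were positive, beside 76.1% of all slopes. At an unadjusted p under 0.05, 10 members had a positive slope, against 18.3% of all genes, and 0 members had a negative one, against 1.69%. These were Hars, Lars, Mars, Tars, Vars, Yars, Aars2, Iars2, Wars2 and Yars2, with slopes from 1.68 to 2.73 on the log2 scale per log2 unit of Rpl13a. The steepest, Mars, had a slope of 2.73 ± 0.91 (SE; adjusted p = 0.113 in edgeR's test). Slopes were close to 0 for Aars (-0.00028 ± 0.45), Rars (-0.0072 ± 0.43) and Farsb (-0.035 ± 0.44).

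The slope test rested on few embryos. All 10 of these genes were counted in replicate 4, the embryo of highest Rpl13a, and 3 of them there only. Without replicate 4, 30 members stayed in the fit, of which 23 had a positive slope and 9 an unadjusted p under 0.05, as had 1765 of 10189 genes. None of them passed the adjusted threshold (0 members and 0 genes, edgeR's test). Without replicate 7, 6 members passed, Lars, Mars, Sars, Tars, Yars and Wars2 (adjusted p from 0.0444 to 0.0464 in edgeR's test), all with positive slopes, as did 14.4% of all genes in that direction. DESeq2 called 365 of 9062 genes with an adjusted p and 0 of 31 members.

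Genes that act with the synthetases were described from a list of 23, of which the table held 22 (Gatb was not found). None passed the dispersion or the slope test in edgeR. Atf4, which drives the amino acid response, had 160, 224, 0, 111, 0, 0 and 38.2 CPM in replicates 1 to 7. It was thus without a count in replicates 3, 5 and 6. Of the genes with the Atf4 core in a promoter, Aars had 102 and 332 CPM in replicates 3 and 5, and Gars 45.5 and 72.0 CPM. Iars, Tars and Yars had no count in either of these embryos. The part of Atf4 in the level of these genes was not tested. Asns, asparagine synthetase and a target of Atf4, had 1.40 CPM in replicate 2 and 41.4 CPM in replicate 4, and Trib3, another target, 212 and 17.9 CPM, with no count elsewhere. Ddit3, a stress factor downstream of Atf4 whose exons overlap those of Mars on the opposite strand, reached 2800.5 CPM in replicate 6, where Mars had no read. Among mitochondrial partners, Mtfmt, which formylates the initiator methionyl-tRNA, reached 1496 CPM in replicate 3. Of the tRNA maturation genes, Ssb, the La protein that protects new tRNA ends, had 267 CPM in replicate 4 and at most 39.7 CPM elsewhere, whereas Xpot, the tRNA exporter, was highest in replicate 5, with 531 CPM against 68.6 CPM in replicate 4. The editing factors Aarsd1 and Dtd1 were counted in replicate 4 alone, at 81.3 and 25.3 CPM.

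Counts under Lars2 were of another order. Lars2 took 3.59, 4.79, 1.19, 1.92, 3.66, 5.19 and 5.87% of all counts in replicates 1 to 7 (3.74 ± 1.71%, SD, n = 7), and ranked from 1 to 3 among all symbols in every library. The range between embryos was 4.94-fold, from replicate 3 to replicate 7, and the SD of log2 CPM was 0.90, with 0.0677% of all genes tested below it. That SD was 0.50 without replicate 3, and 0.43 in the authors' normalized table. Its counts were 5.67 times the sum of the other 34 genes in replicate 4 and 659 times that sum in replicate 6. The symbols Rn45s, Rnr1 and Rnr2, taken here as ribosomal RNA from their names, together took 11.3, 13.2, 3.38, 3.65, 20.4, 8.67 and 4.18%. Lars2 counts were 0.249 times those of Rn45s in replicate 5 and 2.97 times in replicate 7, and from 0.528 to 1.15 times in the other 5 embryos. Lars2 was thus low in replicates 3 and 4, as were these symbols together, but high in replicate 7, where they were low.

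**Figure D5:**
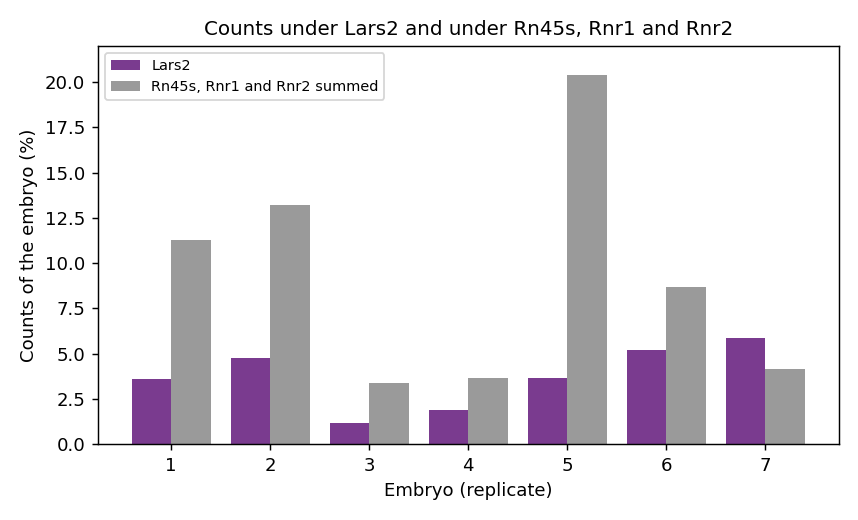
Bars give the percentage of an embryo's counts (vertical axis) under Lars2 and under Rn45s, Rnr1 and Rnr2 summed, for each embryo (horizontal axis). Lars2 ran from 1.19% in replicate 3 to 5.87% in replicate 7.

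Whether the reads came from Lars2 messenger RNA was examined only at the level of annotated sequence. GENCODE M21 places Lars2 on the plus strand of chromosome 9 (GRCm38, 123366927 to 123462666), and its transcript Lars2-201 has 3894 bases. A blastn search with an E-value limit of 1e-05 found 0 matches between the 283 GENCODE M21 transcripts of the 35 genes and 356 transcripts of ribosomal RNA type, 2 of them mitochondrial. The long ribosomal RNAs of the cytoplasm were not analysed here as separate sequences. The long RNA of the large cytoplasmic subunit was not among the transcripts searched, so the 0 matches do not cover it. Against all other transcripts, the strongest matches of Lars2-201 were to AA474408, with 80.1% identity over 196 aligned bases, and to Gm15564, with 98.6% over 72 bases. Both lie in the 3′ untranslated region, within chr9:123461933-123462119. Of these, AA474408 had 587 reads in replicate 1, 20 in replicate 2, 1 in replicate 5 and 0 elsewhere, while Lars2 had from 7247 to 1004874 reads. Gm15564, the closer match, was not among the symbols counted, so its reads could not be compared. The position of the reads along Lars2 cannot be read from a table of gene counts, so their source was not determined.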

How the data were processed

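Single mouse morulae, 7 in 1 group, were profiled by sequencing of polyadenylated RNA (SMART-Seq v4 and Nextera XT, per the labels' protocols). The authors deposited whole-number counts of reads per gene symbol with no normalization, made with HISAT2 2.0.5, featureCounts 1.5.0-p2 and GRCm38, per the submitters' processing notes; for the annotation and any use of strand, the sources used here give nothing. The authors also deposited normalized log2 values, which equalled log2 CPM followed by quantile normalization recomputed from the counts (largest difference 4.97e-14) and were used as an alternative. All value columns of both tables were matched to embryos by number. Pairs of libraries had a chi-square per degree of freedom of at least 118, so none appeared to be deposited again.

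Counts were scaled with TMM in edgeR 4.0.16 (R 4.3.3), with a prior count of 2 for log2 CPM; CPM printed here use library totals without the TMM factor. Genes whose mean CPM reached 1 were tested over the whole table, with Benjamini-Hochberg adjustment at 0.05: a one-sided F test of quasi-likelihood dispersion against genes of like abundance, and the slope on Rpl13a. The code of both tests was run on simulated data, and how many changed genes it recovered there is not given here. DESeq2 1.42.0 and limma 3.58.1 were alternatives, with other scalings, filters, thinning to 139619 counts (seed 1) and each embryo left out. Exon lengths, merged over transcripts, positions and overlaps came from GENCODE M21 (all 35 genes matched; the authors' gene models may be shorter), promoters from RefSeq, and sequence matches from BLAST 2.17.0. In that annotation, exons of 13 members overlap those of another gene, and 9 of them overlap a gene in the count table; how the authors' counting treated such reads is not given. All 35 members may be named; values in each embryo are given for the 4 of highest median CPM in each group (of the mitochondrial genes only Fars2 had a median above 0), for the 2 of smallest and the 2 of largest SD of log2 CPM, for those counted in all 7 embryos and for those counted in 2 or fewer. Some items are not reported here. Members, lists and tests were chosen with earlier results of these data known.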

Additional observations from a re-analysis of the deposited data

Results flagged for a closer look

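A value was looked at again where the gap between the highest or lowest embryo and its neighbour was more than 0.568 of the whole range, the 95% critical value of Dixon's test for 7 samples. The test marks about 1 in 20 groups by chance only where values are normal and untied, which these are not. Here 7 of 41 groups were marked. A gene counted in 1 embryo only is marked whatever its level, since the other 6 embryos tie. Of the genes tested, 7.62% were counted in replicate 4 only. Replicate 4 stood high in Lars (6.13 log2 CPM), Yars (7.30), Wars2 (5.21) and Pars2 (-1.46), each with the other 6 embryos at the value of a count of 0, -2.07, and in Tars (7.55, next 0.46). Pars2 rests on 3 reads. Replicate 6, the shallowest library, stood low in Aars (-2.07 log2 CPM, next 5.21). The ratio of Lars2 to Rn45s counts stood high in replicate 7, at 2.97, with 1.15 as the next.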

How the results depend on the processing

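The count of 0 members past the dispersion test held under every alternative run: other scalings, filters and tools, each embryo left out, and replicates 3 and 6 left out together, the last chosen after seeing the data. For DESeq2 this was its flag of dispersion outliers and not a test. For the slope on Rpl13a, DESeq2 called 365 genes in place of 0, and leaving out 1 embryo gave from 0 to 1726 genes and from 0 to 6 members; without replicate 5 it gave 3 genes and 0 members, and the 6 members came without replicate 7. The cause was not tested. Thinning all libraries to the lowest total lowered the median SD of log2 CPM from 4.23 to 1.55 for cytosolic and from 3.86 to 1.21 for mitochondrial genes, and to 1.25 for all genes tested, since 1 read is then worth 7.16 CPM. SDs of single members moved by more than an SD's own standard error for 33 of the 34 tested members after thinning. They did so for 9 genes without replicate 4, for 6 in the authors' table and for 5 with a prior count of 0.5. Medians over embryos of genes counted, of shares of counts and of the ratio per length moved by less than the SD between embryos. Shallow libraries limit most statements: at the depth of replicate 6, 21.5 CPM can go unseen. No paired analysis was possible because the embryos form 1 group.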
